A study of Mus musculus with 52 samples.

Results

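The genes described here are 10 genes tied to mature mouse neutrophils and their growth factor, S100a8, S100a9, Ly6g, Csf3r, Retnlg, Csf3, Il1f9, Hdc, Mirt2 and Padi4, out of 57010 genes in the deposited table. They do not all mark these cells: Csf3 encodes the growth factor itself, and Csf3r, Hdc, Padi4 and Retnlg were also measured in leukocytes depleted of Ly6G-positive cells. They were taken by gene name, 9 by symbol and Il1f9 by its identifier, since the table lists it under the newer name Il36g. RNA sequencing was done on hCD40tg mice, which carry a human CD40 transgene in every group, vehicle included, and which bore MC38-CEACAM5 tumors, a mouse colon carcinoma line carrying the tumor antigen CEACAM5. The mice received ATOR-4066, whose 2 specificities bind CD40 and CEACAM5, or CD40 mAb, an antibody against CD40, or vehicle. The sources used here do not give strain, age, doses, times or the promoter of the transgene. Libraries came from whole tumor (4 ATOR-4066, 5 CD40 mAb, 4 vehicle), from CD45+Ly6G- cells sorted from tumors, that is leukocytes from which cells carrying the neutrophil surface protein Ly6G had been gated out (3, 3 and 4 libraries in the same order), from blood (4, 5 and 5) and from lymph node (5, 4 and 4).

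Neutrophils are short-lived granulocytes that are made in bone marrow under the growth factor G-CSF, circulate in blood and enter inflamed tissue and tumors along chemokine gradients. Their cytosol is filled with the calcium-binding proteins S100A8 and S100A9, which together form calprotectin, and mature cells of the mouse carry Ly6G on their surface. Activated neutrophils release cytokines, reactive oxygen and DNA traps, and in tumors they have been described both as suppressing and as supporting other immune cells.

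Libraries left out were tumor ATOR-4066 replicate 3 and lymph node vehicle replicate 3, which stood apart: summed over 8 B cell markers, the tumor library had 2806 CPM (counts per 1e6 counts) and the lymph node library 4.68 CPM, against 2214 to 4151 CPM in the lymph node libraries used, which goes against what each is labelled. Total counts, with M for 1e6 counts, were 47.4 to 64.2 M in tumor, 30.2 to 47.4 M in sorted cells, 33.5 to 44.1 M in blood and 46.3 to 138 M in lymph node. Haemoglobin genes held 69.8 to 88.2 percent of all counts in blood libraries, against at most 0.602 percent elsewhere. Levels below are CPM after TMM scaling within a material, an adjusted p under 0.05 is a call, and log2 changes carry their standard error (SE). All comparisons within a material that share a group share its libraries, so they are not independent of each other. Overlap of groups was looked at for the members only. A lack of overlap thus describes their libraries and is not set against all genes. Within a treatment and material each library has its own number in its title, taken here as a separate animal, and the p-values measure the spread between these libraries. Blood, lymph node and tumor libraries of a treatment share numbers and so are taken to share animals, while the sorted cells carry other numbers.

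S100a8 and S100a9 lie on chromosome 3 (GRCm38, 90668978 to 90670035 on the plus strand and 90692632 to 90695721 on the minus strand), with 22596 bases between them. They are shown with the start regions of Retnlg and Il1f9 because they head the results, and the 2 others because theirs hold a C/EBP or a STAT motif. The sequences are the 250 bases before and 50 bases after the RefSeq gene start (RefSeq, GRCm38.p6), in the direction of transcription. S100a8 is at chr3:90668821-90669120 (plus strand), S100a9 at chr3:90695672-90695971 (minus), Retnlg at chr16:48872358-48872657 (plus) and Il1f9 at chr2:24186226-24186525 (plus). Capitals mark a match to a C/EBP motif (TTNNGCAA) or a STAT motif (TTCNNNGAA) on either strand.
S100a8: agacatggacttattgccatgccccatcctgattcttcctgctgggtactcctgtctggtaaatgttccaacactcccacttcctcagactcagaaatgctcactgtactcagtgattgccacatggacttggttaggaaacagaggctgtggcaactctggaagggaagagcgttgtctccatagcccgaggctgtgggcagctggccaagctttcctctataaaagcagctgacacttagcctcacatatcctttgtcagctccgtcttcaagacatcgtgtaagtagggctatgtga
S100a9: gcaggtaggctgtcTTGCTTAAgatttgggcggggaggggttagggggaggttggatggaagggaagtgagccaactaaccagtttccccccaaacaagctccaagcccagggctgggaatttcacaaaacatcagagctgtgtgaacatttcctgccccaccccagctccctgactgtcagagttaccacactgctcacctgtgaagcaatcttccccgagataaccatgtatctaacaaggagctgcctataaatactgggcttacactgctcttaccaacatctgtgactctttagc
Retnlg: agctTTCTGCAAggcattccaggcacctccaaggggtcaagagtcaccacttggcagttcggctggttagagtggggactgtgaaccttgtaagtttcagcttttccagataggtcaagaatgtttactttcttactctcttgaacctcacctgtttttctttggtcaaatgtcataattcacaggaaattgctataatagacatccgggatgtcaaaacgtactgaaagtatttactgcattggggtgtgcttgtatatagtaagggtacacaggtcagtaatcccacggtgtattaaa
Il1f9: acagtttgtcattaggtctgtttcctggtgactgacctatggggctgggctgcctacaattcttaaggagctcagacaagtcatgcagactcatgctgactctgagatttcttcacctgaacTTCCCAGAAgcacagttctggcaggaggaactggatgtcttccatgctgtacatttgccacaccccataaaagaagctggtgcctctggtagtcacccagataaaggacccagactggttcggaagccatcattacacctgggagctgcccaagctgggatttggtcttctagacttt
C/EBP factors and STAT3, which G-CSF activates, are known regulators of neutrophil genes. The C/EBP motif began 236 bases before the start of S100a9 and 246 bases before that of Retnlg, and it occurred in 10.8 percent of 32851 mouse start regions of this length. Of the members not shown, Ly6g had a C/EBP match, 232 bases before the gene start in 1 of its 2 start regions, which are not shown because reads of Ly6g can be split with near-identical genes. The STAT motif began 128 bases before the start of Il1f9 and occurred in 8.30 percent of start regions. The PU.1 core GAGGAA, searched on both strands, was found in S100a8, Ly6g, Csf3r and Il1f9 and in 28.3 percent of all start regions. None of the matches overlapped another motif. Start regions were matched for 8 of the members, all but Csf3 and Mirt2. A match is a string of letters and not a measured binding site.

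In vehicle mice 9 of the 10 members had their highest level in blood after TMM scaling across the materials. By library size alone, vehicle means were instead higher in sorted cells than in blood for Csf3r, Padi4 and Hdc. They were 194 against 86.2 CPM for Csf3r, 13.2 against 6.78 CPM for Padi4 and 13.3 against 12.7 CPM for Hdc. Per kilobase of exon and on 1 scale across the materials, S100a9 led in blood with 650 CPM per kilobase, followed by S100a8 with 263, Retnlg with 144 and Csf3r with 76.5. Il1f9 with 6.81, Hdc with 6.33, Padi4 with 4.47, Mirt2 with 2.22, Ly6g with 1.03 and Csf3 with 0.0354 CPM per kilobase came after them. Ly6g, the gene of the surface protein that defines mouse neutrophils, was thus low even in blood, at 0.966 ± 0.777 CPM (SD, n = 5) on this common scale, with 4 to 29 counts per library. Reads of Ly6g can be split with near-identical genes of the Ly6 family, so its level is uncertain.

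**Figure D1:**
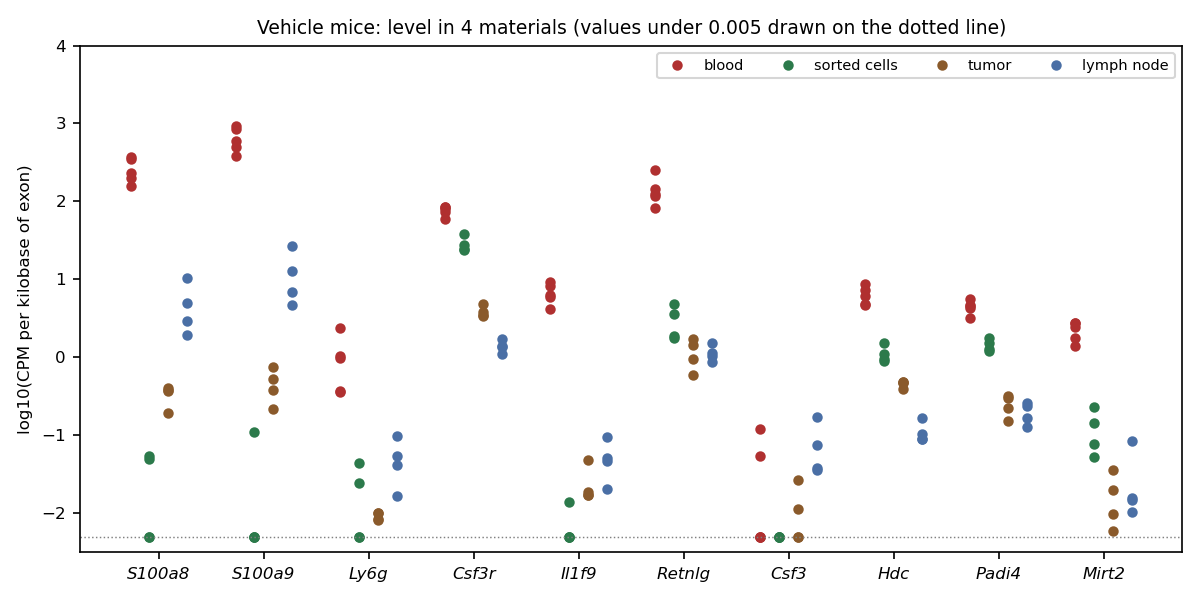
Each point is 1 vehicle library, with genes on the horizontal axis and the level as log10 of CPM per kilobase of exon on the vertical axis, on 1 scale across the materials. On this TMM scale blood libraries lie highest for all members but Csf3, and in sorted cells S100a8 and S100a9 lie at the bottom while Csf3r, Padi4 and Hdc lie well above.

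On the same TMM scale the order of the materials differed between members. With library size alone, the means of blood and sorted cells changed places for Csf3r, Hdc and Padi4. S100a9 had 339 ± 119 CPM in blood (SD, n = 5), 6.74 ± 5.25 CPM in lymph node (n = 4), 0.245 ± 0.118 CPM in tumor (n = 4) and 0.0143 ± 0.0286 CPM in sorted cells (n = 4), and no 2 neighbours in that order overlapped. S100a8 had the same order, with 182 ± 66.2, 3.53 ± 2.63, 0.235 ± 0.0692 and 0.0179 ± 0.0207 CPM. Csf3r, the G-CSF receptor, instead had 276 ± 37.2 CPM in blood, 104 ± 24.6 CPM in sorted cells, 14.1 ± 2.37 CPM in tumor and 5.04 ± 0.896 CPM in lymph node, again without overlap. Hdc, whose enzyme makes histamine, and Padi4, whose enzyme turns arginine of histones into citrulline, had the order of Csf3r. Hdc had 40.4 ± 10.7, 7.12 ± 1.80, 2.93 ± 0.277 and 0.719 ± 0.234 CPM, and Padi4 21.6 ± 4.14, 7.03 ± 1.26, 1.21 ± 0.374 and 0.961 ± 0.304 CPM, where tumor and lymph node overlapped for Padi4 and no neighbours did for Hdc. Il1f9, the gene of the cytokine interleukin-36 gamma, was separate in blood, at 11.2 ± 3.21 CPM. Its means were 0.0879 ± 0.0507 CPM in lymph node, 0.0420 ± 0.0252 CPM in tumor and 0.00573 ± 0.0115 CPM in sorted cells, from at most 16 counts per library. Lymph node, at 0.0337 to 0.156 CPM, overlapped tumor, at 0.0284 to 0.0798 CPM, and sorted cells held at most 2 counts. Retnlg, a resistin-like secreted protein of mouse myeloid cells, was separate only in blood and in sorted cells, at 85.7 ± 39.3 and 1.79 ± 0.871 CPM, and did not differ beyond its spread between tumor and lymph node, at 0.700 ± 0.304 and 0.684 ± 0.169 CPM. Csf3, the gene of G-CSF itself, was near the limit of detection: vehicle libraries held at most 2 counts in blood, 4 in tumor, 0 in sorted cells and 29 in lymph node.

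A voomLmFit model over all materials put figures on these differences. Blood was above tumor for 10 of 10 members, beside 31.2 percent of the 21410 genes tested called higher in that comparison and 66.8 percent called in either direction. Vehicle tumors held 1 count each of Ly6g, 1 to 6 of Mirt2, 3 to 10 of Il1f9 and 0 to 4 of Csf3. Such members passed the filter on low counts through other groups. The counts of members above tumor and above lymph node are thus not read against the shares of all genes. The log2 differences of blood over tumor ran from 2.75 ± 1.13 for Csf3 (adjusted p = 0.0316) to 10.46 ± 2.20 for S100a9 (adjusted p = 5.96e-05), and S100a8 had 9.55 ± 1.88 (adjusted p = 2.31e-05). The Csf3 value rests on 3 counts in all of vehicle blood, and its call was lost without blood replicate 4 or 5 or tumor replicate 4 or 5, at 2.23 to 2.59. Blood was above lymph node for 9 members, all but Csf3, against 29.4 percent of all genes higher and 63.3 percent in either direction, with 5.87 ± 0.59 for S100a8, 7.07 ± 0.59 for Il1f9 and 5.79 ± 0.34 for Csf3r (adjusted p = 1.94e-11, 1.13e-13 and 2.71e-18 in the same voomLmFit test). Scaled by library size alone, the median of all genes shifted by -2.78 between blood and tumor and between blood and lymph node, and the calls over all genes split 1163 higher to 16329 lower for blood against tumor, in place of 6679 to 7615. Relative to that median all 10 members lay higher in blood than in tumor, and 9 of 10 higher than in lymph node. Setting values against the median recentres them much as TMM does, so this is no separate check of the scaling. With library size alone the log2 difference of blood over tumor became 6.76 for S100a8, and for Csf3 it became -0.04.

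The other materials differed in fewer members. Tumor was above lymph node for Csf3r by 1.50 ± 0.46 and for Hdc by 2.07 ± 0.68, and below it for Csf3 by -3.12 ± 1.08 (voomLmFit, adjusted p = 0.00495, 0.00830 and 0.0133). That is 2 members higher and 1 lower, beside 32.4 percent higher, 29.4 percent lower and 61.8 percent in either direction of all genes. The Csf3 call was lost without tumor replicate 4 or 5, at -2.72 and -2.60. Sorted cells were above tumor for Csf3r by 2.86 ± 0.52 and for Padi4 by 2.54 ± 0.56 (adjusted p = 9.16e-06 and 0.000172), 2 of 10 members against 24 percent of all genes higher and 57.8 percent in either direction, and the median of all genes shifted by -0.19 with library size alone.

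The name of the gene group was set beside the levels in the sorted cells, from which Ly6G-positive cells had been gated out. Ly6g had 0 to 3 counts in each of the 10 sorted libraries, and in vehicle S100a9 had 5, 0, 0 and 0 counts and S100a8 3, 0, 3 and 0. Low Ly6g is no measure of the gating, since each vehicle whole tumor held 1 count of it. On the common scale its vehicle mean was 0.0162 CPM in sorted cells and 0.00870 CPM in tumor. Of 12 precursor and granule genes of the lineage, Camp, Elane, Mpo, Ms4a3 and Ngp were at 0 in every ATOR-4066 library, Ngp in every CD40 mAb library, and Camp, Ms4a3 and Ngp in every vehicle library. The list was not absent: it summed to 62.5 to 140 CPM with ATOR-4066, 116 to 654 CPM with CD40 mAb and 101 to 383 CPM with vehicle, where 7 of the 12 had 10 or more counts in a library. In the same vehicle libraries Csf3r had 5064 to 9951 counts, Hdc 431 to 611, Padi4 468 to 548 and Retnlg 75 to 250. These 4 genes were thus measured in vehicle tumor leukocytes in which Ly6g, S100a8 and S100a9 were at or near 0. Of the 25 other mature neutrophil genes, 21 had 10 or more counts in a vehicle sorted library. Cstdc5, Stfa2 and Stfa2l1 were at 0 in every one of these libraries. The list summed to 1813 to 2501 CPM in sorted vehicle cells and 460 to 764 CPM in vehicle tumor, each scaled within its material. Which cells held these transcripts was not tested, and the members are described below as genes and not as a count of neutrophils.

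In whole tumor ATOR-4066 raised 5 of the 10 members, S100a8, S100a9, Il1f9, Mirt2 and Hdc, above vehicle, while 3 were not called and Ly6g and Csf3 were too low to be tested. Among all 18454 genes tested 0.916 percent were called higher and 1.32 percent in either direction. Mirt2, with 1 to 6 counts per vehicle tumor, and Il1f9, with 3 to 10, passed the filter on low counts through the treated tumors, so the count of 5 is not read against these shares. Without the filter 1 member was called, Il1f9. S100a8, S100a9, the RNA Mirt2 and the cytokine gene Il1f9 were under 1 CPM in every vehicle tumor, and Hdc was at 5.19 to 6.56 CPM. In bulk tissue, fewer cells of a type and less RNA per cell cannot be told apart, and the same holds for more.

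S100a8 had 14.9, 34.9, 2.19 and 5.17 CPM in ATOR-4066 tumors (replicates 1, 2, 4 and 5), 1.96, 0.738, 4.19, 1.50 and 10.4 CPM in CD40 mAb tumors (replicates 1 to 5), and 0.538, 0.274, 0.598 and 0.548 CPM in vehicle tumors (replicates 1, 2, 4 and 5). Every ATOR-4066 tumor and every CD40 mAb tumor lay above all vehicle tumors, and the treated groups overlapped each other. The log2 change of ATOR-4066 over vehicle was 4.86 ± 0.99 (edgeR, adjusted p = 0.0433). S100a9 had 22.0, 53.2, 4.14 and 9.52 CPM in ATOR-4066 tumors, 3.85, 0.757, 6.21, 2.01 and 20.2 CPM in CD40 mAb tumors, and 0.420, 0.235, 0.578 and 0.806 CPM in vehicle tumors. ATOR-4066 tumors again lay above all vehicle tumors, replicate 2 highest, and 1 CD40 mAb tumor, replicate 2, fell within the vehicle range. The log2 change of ATOR-4066 over vehicle was 5.43 ± 1.09 (edgeR, adjusted p = 0.0421).

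Il1f9 had 5.69, 8.41, 0.973 and 0.928 CPM in ATOR-4066 tumors, 1.42, 0.148, 0.536, 0.507 and 1.17 CPM in CD40 mAb tumors, and 0.168, 0.0587, 0.0598 and 0.0645 CPM in vehicle tumors, which is 10, 3, 3 and 4 counts. The ATOR-4066 and vehicle tumors did not overlap, and the log2 change was 5.46 ± 0.94 (edgeR, adjusted p = 0.0399). Mirt2, a long non-coding RNA named for myocardial infarction and inducible in macrophages by bacterial lipopolysaccharide, had 4.79, 10.2, 2.26 and 1.28 CPM in ATOR-4066 tumors, 0.456, 0.0738, 0.166, 0.338 and 3.24 CPM in CD40 mAb tumors, and 0.0672, 0.0196, 0.120 and 0.0322 CPM in vehicle tumors. Its log2 change was 6.24 ± 1.27 (edgeR, adjusted p = 0.0433), without overlap between ATOR-4066 and vehicle, from 1 to 6 counts per vehicle tumor. Mirt2 lies on chromosome 15 (76266461 to 76269839, minus strand) and overlaps Spatc1 on the opposite strand, which averaged 3.79 counts over the 52 libraries. The sources used here do not give the strand setting of the counting, so reads of this pair cannot be told apart.

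Hdc was higher with ATOR-4066 than with vehicle and was not called with CD40 mAb. It had 13.6, 26.6, 20.6 and 12.8 CPM in ATOR-4066 tumors, 2.82, 5.57, 8.05, 3.63 and 8.35 CPM in CD40 mAb tumors, and 6.45, 6.19, 6.56 and 5.19 CPM in vehicle tumors. All ATOR-4066 tumors lay above all tumors of both other groups. The log2 change was 1.59 ± 0.35 for ATOR-4066 over vehicle (edgeR, adjusted p = 0.0486), -0.10 for CD40 mAb over vehicle (95% interval -0.74 to 0.53, adjusted p = 0.894) and 1.69 ± 0.33 for ATOR-4066 over CD40 mAb (adjusted p = 0.112, so not called). Scaled by library size alone the call of Hdc over vehicle was lost, at 1.56, which left 4 called members. Without CD40 mAb replicate 5 the difference between the antibodies was called for Hdc, at 1.87, and for Mirt2, at 4.15. Mast cells and basophils also make histamine, and the summed level of 13 eosinophil, basophil and mast cell markers was 95.7 to 175 CPM in ATOR-4066 tumors, 97.4 to 418 CPM in CD40 mAb tumors and 93.7 to 274 CPM in vehicle tumors, with 0 of its 12 tested genes called.

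**Figure D2:**
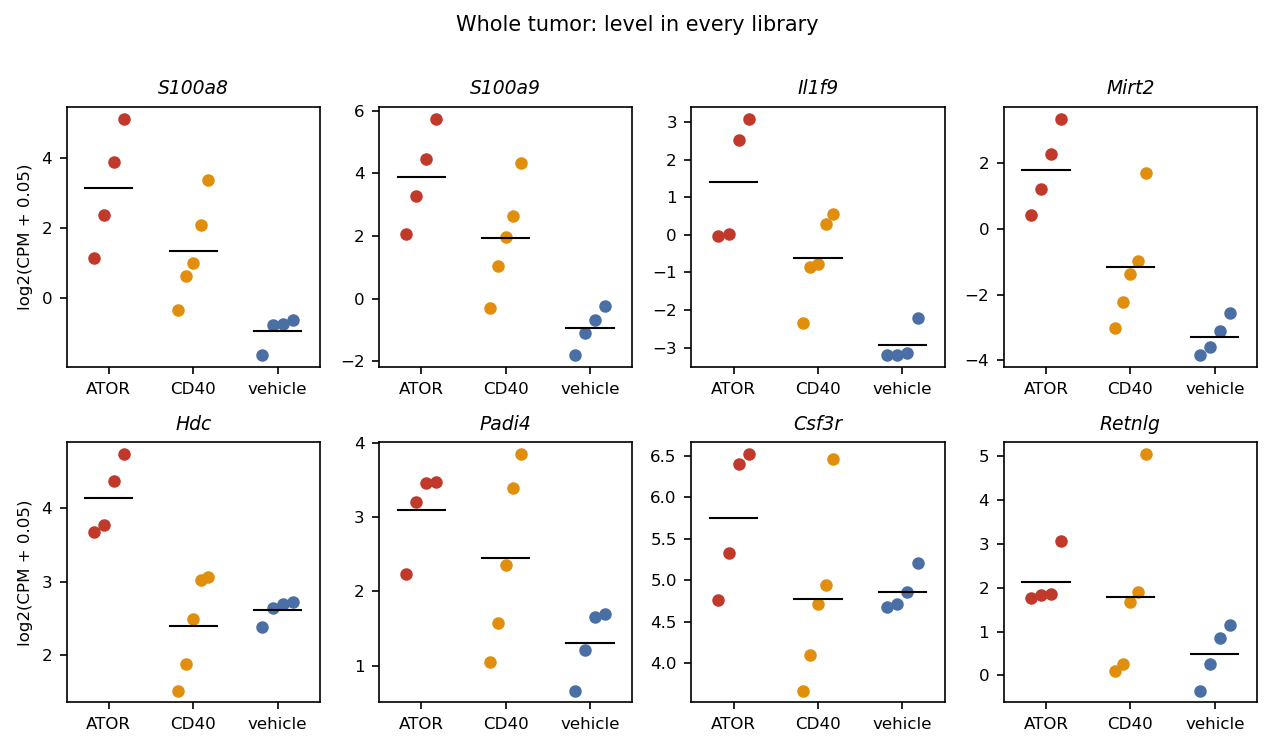
Each point is 1 tumor library, with the treatment on the horizontal axis and log2(CPM + 0.05) on the vertical axis, and black lines are means of these log values. ATOR-4066 tumors lie above all vehicle tumors for S100a8, S100a9, Il1f9, Mirt2, Hdc, Padi4 and Retnlg, and Csf3r overlaps. Padi4 and Retnlg were not called, and how many of all genes separate in this way was not counted.

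Padi4, Csf3r and Retnlg were not called. Padi4 had 9.13, 11.04, 10.95 and 4.66 CPM in ATOR-4066 tumors, 14.4, 2.01, 2.92, 5.07 and 10.5 CPM in CD40 mAb tumors, and 3.09, 3.19, 1.53 and 2.27 CPM in vehicle tumors. The ATOR-4066 and vehicle groups did not overlap, but the log2 change of 1.82 ± 0.56 had an adjusted p of 0.0844 (edgeR). Retnlg had 3.38, 8.30, 3.58 and 3.49 CPM in ATOR-4066 tumors, 3.16, 1.02, 3.69, 1.14 and 33.0 CPM in CD40 mAb tumors, and 2.18, 1.16, 0.737 and 1.76 CPM in vehicle tumors. Its highest tumor was thus in the CD40 mAb group, and the log2 change of ATOR-4066 over vehicle was 1.68 ± 0.96 (edgeR, adjusted p = 0.293). Csf3r had 40.3, 91.7, 84.3 and 27.1 CPM in ATOR-4066 tumors, 17.1, 26.1, 30.8, 12.7 and 87.7 CPM in CD40 mAb tumors, and 36.8, 28.9, 25.6 and 26.2 CPM in vehicle tumors, with overlap between all groups and a log2 change of 1.05 ± 0.54 (edgeR, adjusted p = 0.249). Ly6g had 7, 9, 22 and 3 counts in ATOR-4066 tumors, 0, 1, 2, 1 and 13 counts in CD40 mAb tumors, and 1 count in each vehicle tumor. Csf3 had 2, 13, 5 and 8 counts in ATOR-4066 tumors, 0, 2, 6, 0 and 18 counts in CD40 mAb tumors, and 2, 4, 0 and 0 counts in vehicle tumors. Both stayed below the filter on low counts.

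CD40 mAb over vehicle gave 0 called members in tumor, as it gave 0 called genes (0 percent) among all tested. At an unadjusted p under 0.05 edgeR counted 6 members and 2205 genes, and DESeq2 called 1 member and 30 genes. The log2 changes were 2.93 for S100a8 (95% interval 1.18 to 4.69), 3.69 for S100a9 (1.74 to 5.63), 3.06 for Il1f9, 3.81 for Mirt2, 2.52 for Retnlg and 1.47 for Padi4, each with an adjusted p of 0.412, and 0.25 for Csf3r (adjusted p = 0.826), which became -0.44 without CD40 mAb replicate 5. ATOR-4066 over CD40 mAb likewise gave 0 called members, against 0.0325 percent of genes, with 4 members and 1879 genes at an unadjusted p under 0.05 and 2 members by DESeq2. The log2 changes were 1.93 ± 0.80 for S100a8 (edgeR, adjusted p = 0.438), 1.75 ± 0.85 for S100a9, 2.40 ± 0.73 for Il1f9, 2.43 ± 0.94 for Mirt2 and 0.80 ± 0.51 for Csf3r. Retnlg had -0.84 ± 0.89, or 1.06 without CD40 mAb replicate 5, and Padi4 0.36 ± 0.51. In tumor, then, neither antibody was shown to differ from the other in these genes, and the intervals are wide: that of S100a8 reached from 0.36 to 3.49.

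The called values in tumor sat close to the threshold. With tumor ATOR-4066 replicate 3 and lymph node vehicle replicate 3 kept in, 0 members were called, although S100a9 had 16.5 CPM and Il1f9 4.64 CPM in that tumor before TMM scaling, within the range of the other ATOR-4066 tumors. Leaving out any of the 4 vehicle tumors, or ATOR-4066 replicate 1, 2 or 4, also gave 0 called members, and leaving out ATOR-4066 replicate 5 gave 4. The log2 changes stayed at 3.94 to 5.21 for S100a8, 4.56 to 5.77 for S100a9, 4.83 to 5.97 for Il1f9, 5.53 to 6.76 for Mirt2 and 1.39 to 1.73 for Hdc over these omissions.

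Genes around the members in tumor were taken from lists. Of 25 other mature neutrophil genes, 23 were tested, and ATOR-4066 raised 7 and lowered 0 of them, with a list median of 2.05 beside 0.02 for all genes. Among all genes 0.916 percent were called higher. In vehicle tumors 21 of the 25 reached 10 counts in a library, and in ATOR-4066 tumors 23. Some of the tested genes thus passed the filter through treated tumors, and the count and median are not read against all genes. Clec4e and Clec4d, lectins that sense microbes and dying cells, rose by 4.43 ± 0.71 and 4.44 ± 0.85 (edgeR, adjusted p = 0.0392 and 0.0418), and Stfa2l1, a stefin protease inhibitor of neutrophils, rose by 6.49 ± 1.32 (adjusted p = 0.0433). Of 7 neutrophil-attracting chemokine genes 3 rose and 0 fell (list median 2.41): Cxcl3 by 6.84 ± 1.11, Cxcl2 by 4.88 ± 0.87 and Cxcl5 by 3.27 ± 0.65 (adjusted p = 0.0392, 0.0407 and 0.0420). Of 16 growth factor and cytokine genes around Csf3, 14 were tested and 4 rose (list median 1.10), among them Il6 by 3.21 ± 0.62, Cebpb, the gene of a C/EBP factor, by 1.64 ± 0.27, and Socs3, a feedback inhibitor induced by STAT3, by 1.04 ± 0.15 (adjusted p = 0.0420, 0.0399 and 0.0277). In ATOR-4066 over CD40 mAb, Socs3 was higher by 1.33 ± 0.14 (edgeR, adjusted p = 0.00489). Of 12 precursor and granule genes 6 were tested and 1 rose, Lcn2 (lipocalin, which binds bacterial iron carriers), by 2.53 ± 0.56 (adjusted p = 0.0490).

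Relatives of the members moved less. Of the other S100 genes 10 of 11 were tested with 0 called (median 0.21). The 5 receptor genes of S100A8/S100A9 had 0 called (median 0.80), as had 2 tested interleukin-36 family genes, 5 histamine genes, 2 other Padi genes, 2 other resistin genes and 6 other Ly6 genes. Of 12 monocyte and macrophage markers 1 fell, the chemokine receptor gene Cx3cr1, by -4.15 ± 0.87 (adjusted p = 0.0433), while 8 B cell, 8 T cell and 6 keratinocyte genes tested had 0 called, with medians of -0.96, 1.01 and 0.24. The summed level of the 25 other mature neutrophil genes was 616 to 1781 CPM in ATOR-4066 tumors, 374 to 1337 CPM in CD40 mAb tumors and 460 to 764 CPM in vehicle tumors, and Stfa2 was at 0 in all of them. The 8 fibroblast and matrix genes, with 0 called and a median of -0.21, summed to 4706 to 9837 CPM in ATOR-4066 tumors, 7553 to 13002 CPM in CD40 mAb tumors and 10816 to 15237 CPM in vehicle tumors, so that ATOR-4066 tumors lay below all vehicle tumors. The part of cell numbers in the members' changes was not tested.

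In the sorted CD45+Ly6G- tumor cells, S100a8 and Mirt2 were higher with ATOR-4066 than with vehicle, and Mirt2 was higher and Padi4 lower with ATOR-4066 than with CD40 mAb. S100a9, Ly6g, Csf3 and Il1f9 were too low to be tested. Of 6 members tested 2 were called over vehicle, where 6.76 percent of all 16667 genes were called higher and 11.9 percent in either direction. S100a8, with 0 or 3 counts in each vehicle library, passed the filter through the treated libraries, so the count is not read against these shares, and without the filter only Mirt2 was called. CD40 mAb over vehicle gave 0 called members against 1.09 percent of genes, with 2 members and 3163 genes at an unadjusted p under 0.05 and 2 members by DESeq2.

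Mirt2 had 7.13, 2.25 and 10.9 CPM in sorted cells of ATOR-4066 mice (replicates 6, 9 and 10), 0.169, 0.408 and 0.667 CPM in those of CD40 mAb mice (replicates 6, 7 and 10), and 0.676, 0.424, 0.231 and 0.156 CPM in those of vehicle mice (replicates 6, 7, 9 and 10). All 3 ATOR-4066 libraries lay above the 7 others, and CD40 mAb and vehicle overlapped. The log2 change was 4.17 ± 0.70 over vehicle (edgeR, adjusted p = 0.0106) and 4.03 ± 0.78 over CD40 mAb (adjusted p = 0.0200), and it was 0.14 for CD40 mAb over vehicle (95% interval -1.21 to 1.49, adjusted p = 0.944). Mirt2 was 1 of 6 members tested that was higher with ATOR-4066 than with CD40 mAb, where 5.27 percent of all genes were and 8.23 percent were called in either direction. The call over CD40 mAb was lost without CD40 mAb replicate 7 or 10, at log2 changes of 4.02 and 4.50.

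Padi4 had 9.30, 5.53 and 11.04 CPM with ATOR-4066, 35.9, 18.4 and 82.9 CPM with CD40 mAb, and 11.6, 15.9, 10.8 and 13.8 CPM with vehicle. All CD40 mAb libraries lay above all others, and ATOR-4066 overlapped vehicle. The log2 change of ATOR-4066 over CD40 mAb was -2.41 ± 0.48 (edgeR, adjusted p = 0.0222), and Padi4 was the 1 member called lower, where 2.96 percent of all genes were. That of CD40 mAb over vehicle was 1.81 ± 0.43 (adjusted p = 0.0697) and that of ATOR-4066 over vehicle -0.59 ± 0.44 (adjusted p = 0.415). The call of ATOR-4066 over CD40 mAb was lost without CD40 mAb replicate 10 and without ATOR-4066 replicate 6 or 9, at log2 changes of -1.68, -2.47 and -2.17, and CD40 mAb over vehicle was called at 2.19 without CD40 mAb replicate 7.

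**Figure D3:**
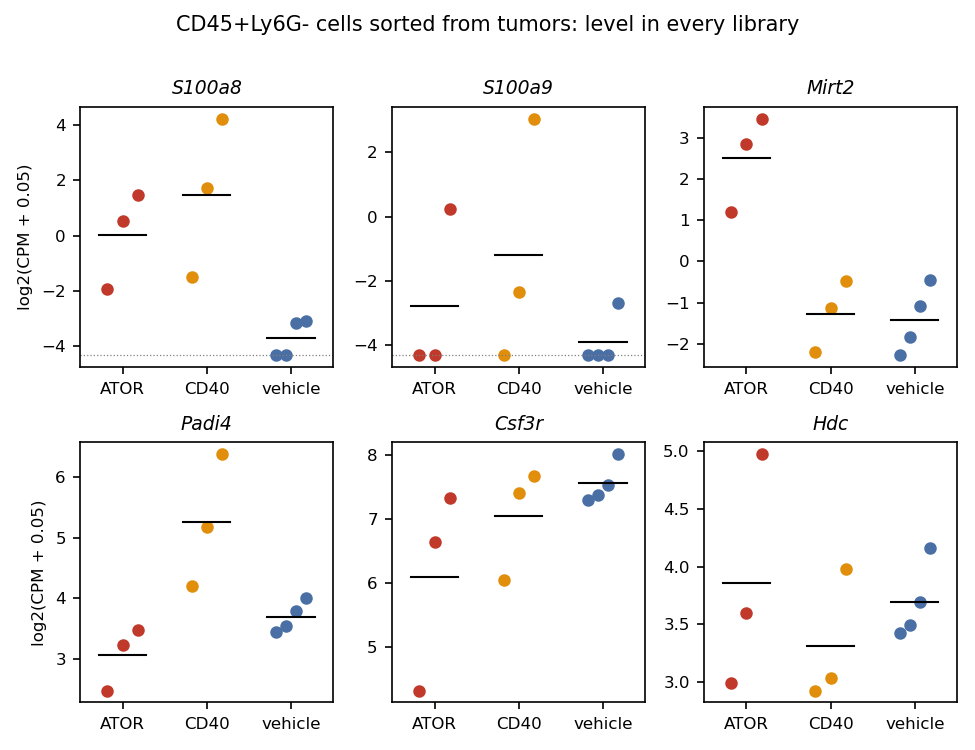
Each point is 1 library of sorted CD45+Ly6G- tumor cells, with the treatment on the horizontal axis and log2(CPM + 0.05) on the vertical axis, black lines are means of these log values, and dotted lines mark 0 counts. Mirt2 is high in the 3 ATOR-4066 libraries, Padi4 in the 3 CD40 mAb libraries, and S100a9 in ATOR-4066 replicate 6 and CD40 mAb replicate 6. S100a8 lies above all vehicle libraries in every treated library and is highest in CD40 mAb replicate 6.

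S100a8 had 111, 9 and 60 counts in sorted cells of ATOR-4066 mice (2.74, 0.215 and 1.39 CPM), 776, 12 and 113 counts in those of CD40 mAb mice (18.7, 0.306 and 3.27 CPM), and 3, 0, 3 and 0 counts in those of vehicle mice. All treated libraries lay above all vehicle libraries. The log2 change was 5.20 ± 1.46 for ATOR-4066 over vehicle (edgeR, adjusted p = 0.0458) and 7.56 ± 1.52 for CD40 mAb over vehicle (adjusted p = 0.0504, just not called), and ATOR-4066 over CD40 mAb gave -2.36 ± 1.27 (adjusted p = 0.263). With vehicle at or under 3 counts, the floor used for detection, these fitted changes depend on the handling of low counts and are no bounds. The ATOR-4066 call was lost without any of the 4 vehicle libraries and without ATOR-4066 replicate 6 or 10, with log2 changes of 4.35 to 5.70 over these omissions, and without CD40 mAb replicate 7 the CD40 mAb value was called at 8.12.

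ATOR-4066 replicate 6, the ATOR-4066 library with the most S100a8, also had 0.602 percent of its counts in haemoglobin genes. The 8 erythroid genes summed to 5871 CPM in it and to 33.6 and 116 CPM in the other ATOR-4066 libraries, against 89.0 to 145 CPM with CD40 mAb and 72.0 to 358 CPM with vehicle, and the part of this in its S100a8 and S100a9 counts was not tested.

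S100a9 did not keep its usual ratio to S100a8 in the sorted cells. It had 46, 0 and 0 counts with ATOR-4066, 340, 0 and 5 counts with CD40 mAb, and 5, 0, 0 and 0 counts with vehicle. ATOR-4066 replicate 10 held 60 counts of S100a8 and 0 of S100a9, and CD40 mAb replicate 10 held 113 and 5. In libraries with at least 20 counts of S100a8, the ratio of S100a9 to S100a8 counts was 0 and 0.414 in ATOR-4066 sorted cells and 0.0442 and 0.438 in CD40 mAb sorted cells. It was 1.85 to 1.99, 2.01 to 2.34 and 1.81 to 1.94 in blood of ATOR-4066, CD40 mAb and vehicle mice, 1.52 to 2.16, 1.38 to 2.29 and 1.76 to 1.96 in lymph node, and 1.47 to 1.89, 1.03 to 1.97 and 0.781 to 1.47 in tumor. These 4 sorted libraries were below every library of the other materials with at least 20 counts.

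**Figure D4:**
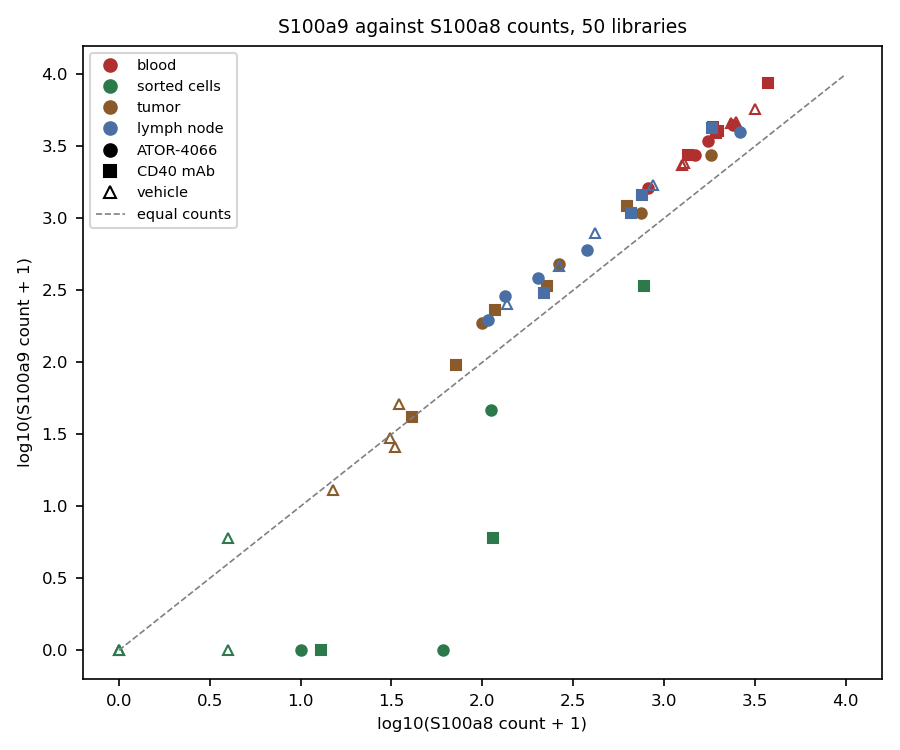
Each point is 1 of the 50 libraries, with log10 of the S100a8 count plus 1 on the horizontal axis and of the S100a9 count plus 1 on the vertical axis, colors for materials, symbols for treatments and a dashed line for equal counts. Blood and lymph node libraries lie above the line, and the 6 treated sorted libraries, which hold 9 or more S100a8 counts, lie below it, down to 60 counts of S100a8 with 0 of S100a9.

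The 3 other members tested in sorted cells were not called in any comparison. Csf3r had 99.4, 19.8 and 161 CPM with ATOR-4066, 66.1, 205 and 169 CPM with CD40 mAb, and 186, 165, 158 and 259 CPM with vehicle, and the groups overlapped. Its log2 change was -1.04 ± 0.59 for ATOR-4066 over vehicle, -0.39 for CD40 mAb over vehicle and -0.65 for ATOR-4066 over CD40 mAb (edgeR, adjusted p = 0.281, 0.780 and 0.548). Retnlg had 6.26, 7.63 and 8.01 CPM with ATOR-4066, 5.11, 3.83 and 5.71 CPM with CD40 mAb, and 5.28, 3.95, 2.08 and 1.95 CPM with vehicle. Its ATOR-4066 libraries lay above all others, at a log2 change over vehicle of 1.14 ± 0.36 that was not called (edgeR, adjusted p = 0.0654) except without vehicle replicate 6, at 1.46, and the values were 0.56 for CD40 mAb over vehicle and 0.58 for ATOR-4066 over CD40 mAb. Hdc had 7.94, 12.1 and 31.4 CPM with ATOR-4066, 8.14, 15.7 and 7.56 CPM with CD40 mAb, and 12.9, 17.9, 10.7 and 11.2 CPM with vehicle, with log2 changes of 0.38, -0.33 and 0.71 in the 3 comparisons (ATOR-4066 over vehicle, CD40 mAb over vehicle, ATOR-4066 over CD40 mAb). Without ATOR-4066 replicate 10 the first became -0.41. Il1f9 had 0, 5 and 61 counts with ATOR-4066, 0, 3 and 5 counts with CD40 mAb, and 2, 0, 0 and 0 counts with vehicle, so that 1 ATOR-4066 library, replicate 10, held most of its reads. Csf3 had 0, 5 and 1 counts with ATOR-4066 and 0 in the other 7 libraries, where 0 counts allow up to 0.0979 CPM by the floor of 3 counts.

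Other genes in the sorted cells moved beside these. Among all 16667 genes, ATOR-4066 over vehicle called 6.76 percent higher and 11.9 percent in either direction. CD40 mAb over vehicle called 1.09 percent in either direction. Of 25 other mature neutrophil genes 21 were tested, and ATOR-4066 raised 3 over vehicle (median 0.70, beside -0.02 for all genes): Fpr1, a receptor for bacterial peptides, by 2.23 ± 0.43, Clec4d by 2.29 ± 0.57 and the decoy receptor gene Il1r2 by 1.62 ± 0.45 (edgeR, adjusted p = 0.0131, 0.0318 and 0.0438). The list's summed level was 700.03 to 2469 CPM with ATOR-4066 (median 1053), 1087 to 1559 CPM with CD40 mAb and 1813 to 2501 CPM with vehicle (median 2319.6), so that ATOR-4066 overlapped vehicle and had the lower median. Of the chemokine genes 6 of 7 were tested and 2 rose with each antibody. Cxcl1 rose by 4.08 ± 0.58 with ATOR-4066 and by 5.21 ± 0.60 with CD40 mAb, and Cxcl2 by 3.27 ± 0.66 and by 3.73 ± 0.67 (adjusted p = 0.00739 and 0.00992 for Cxcl1, 0.0163 and 0.0416 for Cxcl2, both against the same vehicle libraries). The makeup of the sorted cells also differed between groups. The 8 T cell markers were called higher in ATOR-4066 over vehicle, 8 of 8 (median 1.82), and their summed level was 1880 to 4106 CPM with ATOR-4066, 313 to 682 CPM with CD40 mAb and 677 to 1011 CPM with vehicle. Of 8 B cell markers 2 rose and 0 fell (median 3.73), and their sum was 18.7, 22.1 and 426 CPM in the 3 ATOR-4066 libraries, 11.9 to 20.9 CPM with CD40 mAb and 15.7 to 21.1 CPM with vehicle, so that 1 library stood apart. Of 12 monocyte and macrophage markers 4 fell and 0 rose (median -1.07), with summed levels of 1638 to 5853 CPM, 5951 to 11105 CPM and 7684 to 8959 CPM in the same order of groups. The 13 eosinophil, basophil and mast cell markers summed to 128 to 254 CPM, 223 to 388 CPM and 29.4 to 481 CPM. Their part in the values of S100a8, Mirt2, Padi4 and Csf3r was not tested.

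In blood CD40 mAb raised all 9 members tested over vehicle, while ATOR-4066 raised 0 of 9, and 4 members were lower with ATOR-4066 than with CD40 mAb. Csf3 was too low to be tested. The 9 calls compare with 22.2 percent of 12184 genes called higher under CD40 mAb (34.6 percent in either direction). The 4 lower calls compare with 10.8 percent of genes called lower and 13.1 percent in either direction. Ly6g had 4 to 29 counts with vehicle and 6 to 74 with CD40 mAb. It passed the filter on low counts largely through the CD40 mAb libraries, so its calls are not read against these shares. ATOR-4066 over vehicle called 0.435 percent of all genes, with 2 members and 1831 genes at an unadjusted p under 0.05 and 0 members by DESeq2.

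S100a8 had 57.7, 67.7, 20.8 and 37.1 CPM in blood of ATOR-4066 mice (replicates 1, 3, 4 and 5), 41.4, 105, 87.9, 154 and 203 CPM in blood of CD40 mAb mice, and 25.0, 40.5, 22.1, 38.3 and 17.0 CPM in blood of vehicle mice. All CD40 mAb libraries lay above all vehicle libraries, and ATOR-4066 overlapped both. The log2 change was 2.05 ± 0.41 for CD40 mAb over vehicle (edgeR, adjusted p = 0.00144), 0.68 ± 0.42 for ATOR-4066 over vehicle (adjusted p = 0.465) and -1.37 ± 0.43 for ATOR-4066 over CD40 mAb (adjusted p = 0.0493). S100a9 had 107, 126, 41.3 and 73.1 CPM with ATOR-4066, 83.3, 215, 178, 354 and 475 CPM with CD40 mAb, and 48.6, 75.2, 41.0, 69.3 and 31.7 CPM with vehicle. CD40 mAb and vehicle again did not overlap, at a log2 change of 2.29 ± 0.43 (adjusted p = 0.000769), and ATOR-4066 was at 0.70 over vehicle and -1.59 ± 0.45 over CD40 mAb (adjusted p = 0.464 and 0.0281).

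Ly6g had 0.193, 0.229, 0.153 and 0.256 CPM with ATOR-4066 (5 to 12 counts), 0.182, 2.01, 1.09, 3.14 and 4.04 CPM with CD40 mAb (6 to 74 counts), and 0.0533, 0.145, 0.154, 0.352 and 0.0543 CPM with vehicle (4 to 29 counts). It had the largest change of the members in blood, 3.70 ± 0.66 for CD40 mAb over vehicle and -3.26 ± 0.74 for ATOR-4066 over CD40 mAb (edgeR, adjusted p = 0.000676 and 0.0100), and CD40 mAb replicate 1 lay within the vehicle range. Hdc had 9.62, 13.6, 6.25 and 9.64 CPM with ATOR-4066, 7.79, 21.1, 18.9, 35.5 and 45.02 CPM with CD40 mAb, and 4.68, 6.20, 7.35, 8.65 and 4.85 CPM with vehicle. Its log2 change was 2.01 ± 0.38 for CD40 mAb over vehicle and -1.39 ± 0.40 for ATOR-4066 over CD40 mAb (adjusted p = 0.00115 and 0.0353), and again CD40 mAb replicate 1 fell within the vehicle range. Il1f9 had 4.60, 3.07, 2.25 and 3.03 CPM with ATOR-4066, 2.07, 4.88, 4.86, 7.70 and 9.93 CPM with CD40 mAb, and 1.63, 2.12, 1.57, 2.38 and 1.10 CPM with vehicle. It was higher by 1.71 ± 0.35 with CD40 mAb and at 0.88 ± 0.36 with ATOR-4066 over vehicle (adjusted p = 0.00184 and 0.263).

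The remaining members in blood had smaller changes. Csf3r had 85.6, 84.4, 39.5 and 60.5 CPM with ATOR-4066, 44.98, 68.3, 76.2, 104 and 150 CPM with CD40 mAb, and 45.3, 41.6, 48.1, 47.7 and 33.9 CPM with vehicle, and CD40 mAb was higher than vehicle by 1.03 ± 0.28 (edgeR, adjusted p = 0.0103). Retnlg had 14.2, 18.1, 12.6 and 10.3 CPM with ATOR-4066, 13.1, 22.7, 28.1, 28.9 and 65.0 CPM with CD40 mAb, and 11.5, 23.7, 10.9, 13.4 and 7.64 CPM with vehicle, with overlap and a log2 change of 1.23 ± 0.38 for CD40 mAb (adjusted p = 0.0213). Padi4 had 5.06, 5.50, 4.16 and 4.82 CPM with ATOR-4066, 3.71, 4.93, 6.41, 5.46 and 12.8 CPM with CD40 mAb, and 3.26, 3.42, 3.58, 4.24 and 2.44 CPM with vehicle. Its change of 0.97 ± 0.26 with CD40 mAb was the smallest of the 9 (adjusted p = 0.0102). Mirt2 had 0.485 to 1.05 CPM with ATOR-4066, 0.456 to 2.67 CPM with CD40 mAb and 0.353 to 0.679 CPM with vehicle, and CD40 mAb was higher by 1.14 ± 0.37 (adjusted p = 0.0268). The calls of Retnlg and Mirt2 were lost without CD40 mAb replicate 5, at 0.79 and 0.64, and without vehicle replicate 5, at 1.08 and 1.01, and that of Mirt2 also without vehicle replicate 3 or CD40 mAb replicate 2, at 1.07 and 1.10. In CD40 mAb over vehicle the other 7 calls held whichever library was left out.

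The direction of the blood values depends on the scaling. TMM factors were 0.623 to 1.19 with ATOR-4066, 0.314 to 0.981 with CD40 mAb and 1.65 to 2.35 with vehicle, and haemoglobin genes took 78.1 to 88.2, 77.5 to 81.2 and 69.8 to 76.0 percent of counts. Scaled by library size alone, the median of all genes was -1.83 for CD40 mAb over vehicle, -1.08 for ATOR-4066 over vehicle and 0.72 for ATOR-4066 over CD40 mAb. The calls over all genes then split 318 higher to 10654 lower for CD40 mAb over vehicle, in place of 2710 to 1509, with 11 to 9161 in place of 50 to 3 for ATOR-4066 over vehicle and 2324 to 383 in place of 281 to 1312 for ATOR-4066 over CD40 mAb. On that scale CD40 mAb over vehicle was 0.07 for S100a8, 0.30 for S100a9 and 0.02 for Hdc, none of them called, while Ly6g stayed higher at 1.67 and Csf3r and Padi4 were lower, at -0.88 and -0.88. Retnlg, Il1f9 and Mirt2 were below 0 as well, at -0.64, -0.24 and -0.75. Relative to the median of all genes the 9 members lay higher, by 1.90 for S100a8, 2.13 for S100a9, 3.49 for Ly6g and 1.85 for Hdc. Il1f9 lay higher by 1.59, Retnlg by 1.19, Mirt2 by 1.08, Csf3r by 0.95 and Padi4 by 0.94. Subtracting the median recentres the changes much as TMM does, so these values are no separate check of the rise. With haemoglobin genes removed before TMM, 9 members were called for CD40 mAb over vehicle, 0 for ATOR-4066 over vehicle and 4 for ATOR-4066 over CD40 mAb.

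**Figure D5:**
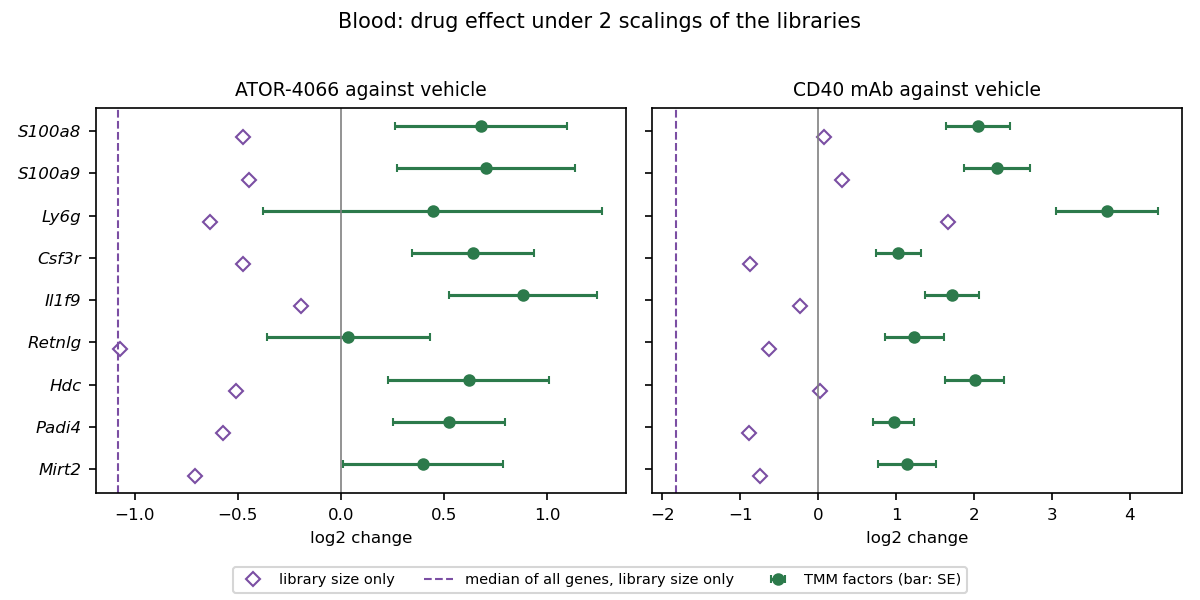
Log2 change in blood on the horizontal axis for each member, for ATOR-4066 over vehicle (left) and CD40 mAb over vehicle (right), as circles with SE bars under TMM factors and as diamonds under library size alone, with a dashed line at the median of all genes under library size alone. All diamonds of CD40 mAb lie to the right of the dashed line at -1.83, and 5 of 9 lie left of 0.

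The 4 lower calls of ATOR-4066 over CD40 mAb changed with single libraries. The number of called members ran from 1 to 7 over the omission of each library. It was 1 without CD40 mAb replicate 4 or 5 or ATOR-4066 replicate 4 or 5, 2 without CD40 mAb replicate 2 or ATOR-4066 replicate 1, and 3 without CD40 mAb replicate 3. Without CD40 mAb replicate 1 it was 7, with Retnlg at -1.40, Il1f9 at -1.06 and Mirt2 at -1.002 added. Ly6g was called in each of these omissions. Scaled by library size alone the calls of S100a8, S100a9 and Hdc were lost, at -0.55, -0.75 and -0.53, and Ly6g was left, as it was without the filter on low counts. The other members had -1.20 ± 0.41 for Retnlg, -0.83 ± 0.37 for Il1f9, -0.74 for Mirt2, -0.44 for Padi4 and -0.39 for Csf3r (edgeR, adjusted p = 0.0702, 0.167, 0.268, 0.337 and 0.442).

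Listed genes in blood moved with the members under CD40 mAb after TMM scaling. The lists were not tested with library size alone, where the median of all genes was -1.83 for CD40 mAb over vehicle. Among all 12184 genes, CD40 mAb over vehicle called 22.2 percent higher and 34.6 percent in either direction. ATOR-4066 over CD40 mAb called 10.8 percent lower and 13.1 percent in either direction. Of 25 other mature neutrophil genes 23 were tested and 21 rose over vehicle (median 1.56, beside -0.05 for all genes), among them Mxd1, a MAX partner of differentiating cells, by 2.15 ± 0.34, Slfn4, a myeloid schlafen gene, by 3.50 ± 0.55, and Asprv1, an aspartic protease gene, by 2.06 ± 0.36 (edgeR, adjusted p = 0.000229, 0.000293 and 0.000670). Of 12 precursor and granule genes 6 were tested and 4 rose (median 2.59): Ltf (lactoferrin) by 3.54 ± 0.60 and Ngp by 3.61 ± 0.68 led, with Lcn2 at 2.36 ± 0.51 (adjusted p = 0.000618, 0.00153 and 0.00342). ATOR-4066 over CD40 mAb was lower for 6 of the 23 other mature genes and for Ltf and Ngp, by -3.02 ± 0.67 and -2.86 ± 0.74 (adjusted p = 0.00957 and 0.0227). Beside them 8 of 8 erythroid genes rose with CD40 mAb (median 2.32), 7 of 8 B cell markers fell (median -0.97), and of 10 tested monocyte and macrophage markers 2 rose and 4 fell (median -0.49). The erythroid rise is one on the TMM scale: the median share of counts in haemoglobin genes was 79.3 percent with CD40 mAb and 74.1 percent with vehicle. The summed level of the other mature genes was 206 to 301 CPM with ATOR-4066, 210 to 809 CPM with CD40 mAb and 153 to 227 CPM with vehicle. Whether the members' values follow the numbers of these cells was not tested.

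In lymph node 0 members were called in any comparison, beside 0 percent of 18671 genes for ATOR-4066 over vehicle, 0.0643 percent for CD40 mAb over vehicle and 0.0161 percent for ATOR-4066 over CD40 mAb. At an unadjusted p under 0.05 edgeR counted 1, 2 and 1 members and 2954, 4409 and 1740 genes in these comparisons, and DESeq2 called 0, 1 and 0 members. Il1f9 had 0.278, 0.163, 0.132, 0.0987 and 0.237 CPM with ATOR-4066 (replicates 1 to 5). It had 0.592, 0.691, 0.404 and 1.47 CPM with CD40 mAb (replicates 2 to 5). With vehicle it had 0.323, 0.0708, 0.178 and 0.164 CPM (replicates 1, 2, 4 and 5). These levels rest on 5 to 33 counts with ATOR-4066, 19 to 71 with CD40 mAb and 4 to 16 with vehicle. All CD40 mAb libraries lay above all others, at a log2 change over vehicle of 2.10 ± 0.50 (edgeR, adjusted p = 0.0593), and ATOR-4066 over CD40 mAb was -2.09 ± 0.46 (adjusted p = 0.218).

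S100a8 in lymph node had 7.50, 1.94, 2.50, 3.99 and 18.8 CPM with ATOR-4066, 16.6, 4.30, 14.1 and 38.2 CPM with CD40 mAb, and 2.74, 7.35, 15.4 and 4.34 CPM with vehicle. The groups overlapped, and the log2 change of CD40 mAb over vehicle was 1.29 ± 0.83 for S100a8 and 1.38 ± 0.86 for S100a9 (edgeR, adjusted p = 0.352 and 0.336). Csf3r had 10.9, 15.2, 12.8, 12.9 and 12.5 CPM with ATOR-4066, 13.7, 13.1, 14.2 and 23.0 CPM with CD40 mAb, and 12.8, 10.7, 8.56 and 10.2 CPM with vehicle, where CD40 mAb and vehicle did not overlap at a change of 0.60 ± 0.18 (adjusted p = 0.0992). Hdc had 1.85, 15.9, 1.77, 1.48 and 2.11 CPM with ATOR-4066, 3.14, 4.97, 3.13 and 4.89 CPM with CD40 mAb, and 2.20, 1.40, 1.23 and 1.20 CPM with vehicle. The CD40 mAb libraries lay above the vehicle libraries, at a change of 1.42 ± 0.72 (adjusted p = 0.246), and 1 ATOR-4066 library, replicate 2, was far above all others. Retnlg had 0.696 to 3.04 CPM, 0.928 to 7.09 CPM and 1.10 to 1.90 CPM with ATOR-4066, CD40 mAb and vehicle, and Padi4 1.63 to 3.61 CPM, 2.19 to 4.10 CPM and 1.30 to 2.62 CPM. Csf3 had 6, 62, 5, 4 and 42 counts with ATOR-4066, 5, 25, 9 and 9 counts with CD40 mAb, and 11, 29, 6 and 7 counts with vehicle, and lymph node was the only material in which every library used here had a count of it. Ly6g (2 to 20 counts) and Mirt2 (0 to 14 counts) were too low to be tested. The 6 fat cell genes, which mark tissue around a node, summed to 12.6 to 1077 CPM with ATOR-4066, 76.8 to 750 CPM with CD40 mAb and 679 to 2076 CPM with vehicle, and their part in the members' values was not tested.

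Differences of a drug effect between materials were tested in the voomLmFit model. The ATOR-4066 effect over vehicle was larger in tumor than in blood for Mirt2, by 5.56 ± 1.20 (adjusted p = 0.0180), 1 of 10 members against 0.397 percent of 21410 genes called higher and 0.733 percent in either direction. It was larger in tumor than in lymph node for Mirt2, by 7.47 ± 1.34, and for Il1f9, by 4.77 ± 1.24 (adjusted p = 0.00133 and 0.0139), 2 of 10 members against 4.56 percent higher and 8.78 percent in either direction. Vehicle tumors held 1 to 6 counts of Mirt2 and 3 to 10 of Il1f9, and lymph node libraries 0 to 14 of Mirt2. These genes passed the filter through other groups, so their calls are not read against these shares. The sizes of the differences depend on the handling of low counts. Scaled by library size alone, the median of all genes in the tumor to blood difference shifted by 1.00, and Mirt2 was at 6.51. The call of Mirt2 between tumor and blood was lost without vehicle tumor 2, 4 or 5 and without ATOR-4066 tumor 1 or 2, at 5.02 to 5.93. That of Il1f9 between tumor and lymph node was lost without vehicle tumor 4, at 4.66. Between tumor and blood Il1f9 was at 4.05 ± 1.10 (voomLmFit, adjusted p = 0.0641) and was called without ATOR-4066 tumor 4 or 5, at 4.50 and 4.56.

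The ATOR-4066 effect was smaller in sorted cells than in whole tumor for Csf3r, by -2.34 ± 0.76, and for Padi4, by -2.39 ± 0.76 (voomLmFit, adjusted p = 0.0408 and 0.0354), 2 of 10 members against 5.14 percent of genes called lower and 10.1 percent in either direction. These genes had higher values with ATOR-4066 than with vehicle in whole tumor on average and lower ones in the sorted cells, though neither change alone was called. The call of Csf3r was lost without tumor vehicle replicate 2, 4 or 5, tumor ATOR-4066 replicate 2 or 4, sorted vehicle replicate 6, 9 or 10 or sorted ATOR-4066 replicate 9, at -2.43 to -1.44, the smallest without the last of these. That of Padi4 was lost without any of the 4 vehicle tumors, tumor ATOR-4066 replicate 1, 2 or 4, sorted vehicle replicate 7 or 10 or sorted ATOR-4066 replicate 6 or 9, at -2.51 to -2.08. Of the CD40 mAb effects, 0 members differed between tumor and blood, tumor and lymph node, sorted cells and tumor, or lymph node and blood, beside 9.09, 5.72, 0.392 and 23.3 percent of genes, with 1, 0, 0 and 1 members at an unadjusted p under 0.05. For lymph node against blood the ATOR-4066 effect differed in 0 members too, beside 0.972 percent, with 0 members at an unadjusted p under 0.05.

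Genes with a pattern most like that of S100a8 and S100a9 were ranked by Pearson r with the mean log2-CPM of S100a8 and S100a9. Over the 13 tumor libraries, among 11989 genes, these were Acbd4 (r = 0.946), Yipf1 (0.942), Alas1 (0.929), Galm (0.929), Dpm2 (0.925) and Pf4 (0.922). Of the members, Il1f9 had 0.935, Mirt2 0.928, Retnlg 0.774, Padi4 0.713, Hdc 0.626 and Csf3r 0.547. Over the 14 blood libraries, among 6310 genes, they were C5ar1 (0.981), Cxcr2 (0.980), Hmgb2 (0.979), Chil1 (0.977), Lcn2 (0.972) and Il1rn (0.969), of which C5ar1 and Cxcr2 are receptors of neutrophil attractants. Points of each set share their libraries and treatments, so the values describe these libraries.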

How the data were processed

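RNA was sequenced from polyA RNA with a stranded mRNA kit, per the labels' protocols. The authors deposited estimated counts per gene in 1 table, made with salmon by its name; the submitters' processing notes name STAR and the build GRCm38. Neither the annotation nor the strand setting is stated in the sources used here. Of all cells 11.0 percent were fractional, and estimated counts were rounded to whole numbers.

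Genes were matched to GENCODE vM21 and RefSeq. Within each material, edgeR 4.0.16 (R 4.3.3) kept genes by filterByExpr (minimum count 10, total 15), scaled by TMM and fitted a robust quasi-likelihood test of the 3 treatments, with Benjamini-Hochberg adjustment over all genes tested. Comparisons across materials used voomLmFit (edgeR with limma 3.58.1) over all libraries, without a block for the animal, which was an alternative. By their titles blood, lymph node and tumor libraries share animals. Over 36 pairs of libraries of 1 animal in different materials, the correlation of deviations from the group means was -0.16 to 0.051, with 0 over 0.1. DESeq2 1.42.0, other scaling, no filter, a replicate block, only the 2 treatments compared, the 2 left-out libraries kept and each library left out were alternatives; scaling by library size alone and removal of haemoglobin genes were chosen after seeing the data. On simulated data DESeq2 exceeded its nominal rate of false calls, while edgeR and voomLmFit stayed under a limit set above that rate. The simulation gave all genes the same spread beyond counting error and changed only genes with higher counts. It therefore does not give the rate of false calls for members with few counts or a wide spread. Total counts were 30.2 to 138 M per library (M, 1e6 counts). A floor of 3 counts was taken as the limit of detection, which covers counting error only. The least different of 82 pairs of libraries compared for duplicates had a chi-square of 10.97 per degree of freedom, so each was counted once.

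All 10 members were reported; other genes named are at most 3 per list by adjusted p, and the 6 genes most like S100a8 and S100a9. The members and lists were chosen with earlier results of these data known, and the log2 values recomputed under alternatives were chosen after their values were seen.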

Additional observations from a re-analysis of the deposited data

Results flagged for a closer look

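Single libraries stood apart from their group in 6 of 81 groups of 4 or 5 libraries tested, where chance gives about 1 in 20. Csf3r in lymph node CD40 mAb replicate 5 was at 23.0 CPM, with the next at 14.2 CPM. Hdc in lymph node ATOR-4066 replicate 2 was at 15.9 CPM, with the next at 2.11 CPM. In tumor, Il1f9 of vehicle replicate 1 was at 0.168 CPM (next 0.0645), Mirt2 of CD40 mAb replicate 5 at 3.24 CPM (next 0.456) and Retnlg of ATOR-4066 replicate 2 at 8.30 CPM (next 3.58). S100a8 of tumor vehicle replicate 2 was low, at 0.274 CPM (next 0.538).

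The ATOR-4066 effect differed between materials by a voomLmFit test of the difference. It was larger in tumor than in blood for Mirt2, by 5.56, and larger in tumor than in lymph node for Mirt2, by 7.47, and for Il1f9, by 4.77. Vehicle tumors held only 1 to 6 counts of Mirt2 and 3 to 10 of Il1f9, and lymph node libraries 0 to 14 of Mirt2. In sorted cells against tumor the difference in the ATOR-4066 effect was -2.34 for Csf3r and -2.39 for Padi4.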

How the results depend on the processing

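Counts of called members, taken in either direction, changed as follows. For ATOR-4066 over vehicle in tumor, 5 became 6 with DESeq2, 5 with RLE factors, 7 with only the 2 treatments, 4 with library size alone (Hdc lost, at 1.56), 1 without a filter on low counts, 0 with the replicate block, 0 with both left-out libraries kept and 0 to 4 with each library left out. For CD40 mAb over vehicle in tumor 0 became 1 with DESeq2, and for ATOR-4066 over CD40 mAb 0 became 2 with DESeq2 and 0 to 2 with a library left out. In sorted cells, ATOR-4066 over vehicle went to 3 with DESeq2, 1 without a filter, 1 with only the 2 treatments and 1 to 2 with a library left out. CD40 mAb over vehicle there went to 2 with DESeq2, 1 with library size alone, 2 with only the 2 treatments and 0 to 2 with a library left out. ATOR-4066 over CD40 mAb went to 1 without a filter, 1 with the replicate block, 0 with only the 2 treatments and 0 to 2 with a library left out. In blood, ATOR-4066 over vehicle went to 1 with library size alone, with a negative log2 change, and 2 with only the 2 treatments. There CD40 mAb over vehicle went to 3 with library size alone and 7 to 9 with a library left out. On library size alone Csf3r and Padi4 were at -0.88 and Ly6g at 1.67 in that comparison. In blood ATOR-4066 over CD40 mAb went to 5 with DESeq2, 1 with library size alone and 1 without a filter. It went to 0 with the replicate block, 1 with only the 2 treatments and 1 to 7 with a library left out. In lymph node CD40 mAb over vehicle went to 1 with DESeq2 and 1 with only the 2 treatments. Vehicle tumor against lymph node went to 1 with libraries kept and 5 with library size alone. The ATOR-4066 effect in tumor against blood went to 2 with libraries kept, 7 with library size alone and 0 to 2 with a library left out, tumor against lymph node to 1 with libraries kept and 1 to 2, and sorted cells against tumor to 1 with libraries kept and 0 to 2. The CD40 mAb effect in tumor against blood went to 3 with library size alone and 0 to 2, and lymph node against blood to 4 and 0 to 1. The causes were not tested.

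Directions changed with library size alone in blood: for ATOR-4066 over vehicle to -0.48 (S100a8), -0.45 (S100a9), -0.63 (Ly6g), -0.47 (Csf3r), -1.07 (Retnlg), -0.20 (Il1f9), -0.51 (Hdc), -0.71 (Mirt2) and -0.57 (Padi4), for CD40 mAb over vehicle to -0.88 (Csf3r), -0.64 (Retnlg), -0.24 (Il1f9), -0.75 (Mirt2) and -0.88 (Padi4), and for ATOR-4066 over CD40 mAb to 0.40 (Csf3r), 0.039 (Il1f9), 0.037 (Mirt2) and 0.31 (Padi4). Csf3 in vehicle blood against tumor became -0.039 on that scale. With the replicate block, Retnlg in tumor became 0.31 for ATOR-4066 over CD40 mAb and Mirt2 in sorted cells -0.26 for CD40 mAb over vehicle. Without a filter Retnlg in blood became -0.018 for ATOR-4066 over vehicle. Leaving out libraries gave -0.44 to 0.46 for Csf3r and -0.28 to 0.072 for Hdc (tumor, CD40 mAb over vehicle), -1.27 to 1.06 for Retnlg (tumor, ATOR-4066 over CD40 mAb), -0.34 to 0.62 for Mirt2 (sorted cells, CD40 mAb over vehicle), -0.41 to 0.71 and -0.094 to 1.13 for Hdc (sorted cells, ATOR-4066 over vehicle and over CD40 mAb) and -0.12 to 0.34 for Retnlg (blood, ATOR-4066 over vehicle). Of 699 values of 112 gene results under the other alternatives, 613 kept direction and call.

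Between materials, the block for the animal changed no count of called members. Within a material, replicate numbers did not pair libraries: over 44 pairs of the same number and another treatment, the correlation of deviations from the group means was -0.33 to 0.345, with 5 over 0.1. Depth limits Ly6g, Csf3 and Il1f9, which had few counts in most materials.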
